A study of Zea mays with 8 samples.

Results

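The ramosa genes ra1, ra2 and ra3 and the corepressor gene rel2 were examined in immature maize ears, as 4 gene IDs out of the 39498 in the count tables. They were chosen by name, as the genes that restrain branching of the maize inflorescence, and not by a rule on their counts, but with earlier results of these data known. ra1 is Zm00001d020430.RefGen_V4, ra2 is Zm00001d039694.RefGen_V4, ra3 is Zm00001d022193.RefGen_V4 and rel2 is Zm00001d024523.RefGen_V4. RNA was sequenced in 8 libraries, 2 from each of 4 groups. Both parents were wild-type inbred lines, B73 and Mo17. WTF1 was the wild-type hybrid (labelled Mo17/B73 with +/+), and mop1F1 was the hybrid labelled B73/Mo17 with mop1/mop1, so that both its copies of mop1 were mutant. MOP1 is the RNA-dependent RNA polymerase that RNA-directed DNA methylation relies on in maize. The labels name neither the mop1 allele nor the age of the ears, and do not say whether replicates were different plants, so a p-value reflects variation among these libraries that could be technical.

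In a young maize ear, axillary meristems become either long branches or short, determinate spikelet pairs. ra1 encodes a zinc-finger transcription factor that imposes the short-branch fate, and ears of ra1 mutants are branched. ra2, a LOB-domain transcription factor, and ra3, a trehalose-6-phosphate phosphatase, act upstream of ra1 in genetic tests, and rel2 encodes a TOPLESS-like corepressor that binds RA1. The transcripts of the 3 ramosa genes are known from small groups of cells at or beside axillary meristems, while rel2 is expressed widely. In RNA of whole ears, fewer cells of a type and less RNA per cell cannot be told apart.

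Levels are given as CPM, a gene's reads in every 1000000 reads counted on genes in that library. The libraries held 11723096 to 26199577 such reads. Differences between groups were tested on the counts of all genes together (edgeR quasi-likelihood test), with p-values adjusted over the 24511 IDs that passed a filter on low counts. A gene was called changed at an adjusted p below 0.05. All 4 genes passed the filter, but ra1 did so only through WTF1 replicate 2 and mop1F1 replicate 2, so a difference that sets these libraries apart was needed for ra1 to be tested at all. Levels are compared within a gene only, because no transcript lengths were used. The libraries of the 2 hybrids numbered 1 in their titles stood apart from the other 6 in that 9.70% (WTF1) and 10.25% (mop1F1) of their records were ambiguous between genes, against 1.29% to 2.35% elsewhere.

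**Figure D1:**
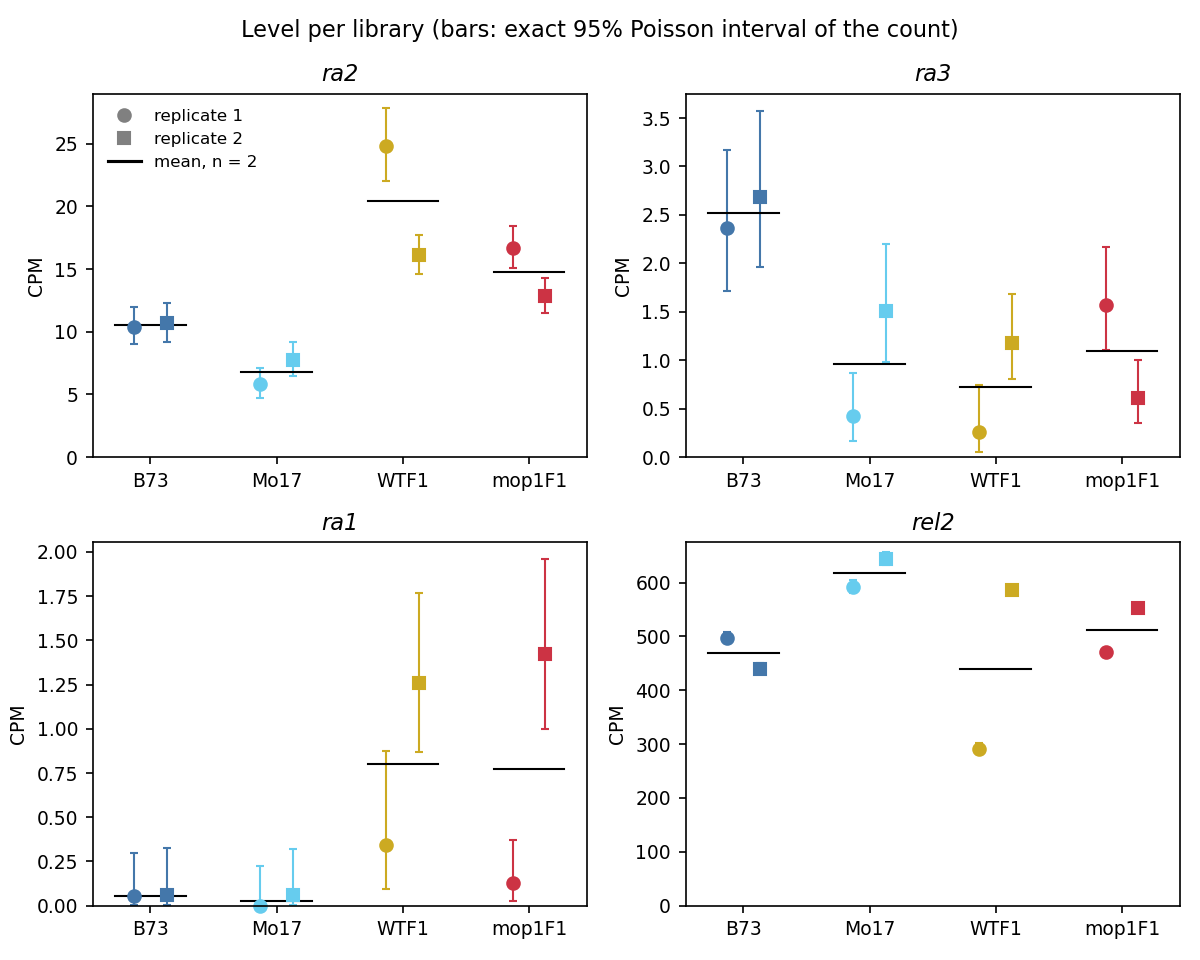
Level of each gene in CPM (linear axes from 0) in the 8 libraries, by group; circles are replicate 1, squares replicate 2, black lines the mean of 2 libraries, and bars the exact 95% Poisson interval of the count. ra2 lies above every parental library in all 4 hybrid libraries, ra1 is highest in the hybrid libraries numbered 2, and rel2 is lowest in WTF1 replicate 1.

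Set against the parents, the hybrids had more ra2 RNA. The LOB-domain gene ra2 was at 10.4 and 10.7 CPM in the B73 libraries 1 and 2, at 5.85 and 7.75 CPM in those of Mo17, at 24.8 and 16.1 CPM in the wild-type hybrid, and at 16.7 and 12.8 CPM in mop1F1. The lowest hybrid library was 1.20 times the highest parental one, so the hybrids and the parents did not overlap. The order of the group means was WTF1 (20.5 ± 6.16 CPM, SD, n = 2), mop1F1 (14.8 ± 2.75 CPM), B73 (10.5 ± 0.178 CPM) and Mo17 (6.80 ± 1.34 CPM), and of neighbouring groups only WTF1 and mop1F1 overlapped in their libraries. B73 lay wholly above Mo17 in 36.2% of all tested IDs, and the share with mop1F1 wholly above B73 is not given.

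Over both hybrids together, ra2 was 2.16-fold higher than over both parents (log2 fold change 1.11 ± 0.25, SE; 95% interval 0.53 to 1.69; edgeR, adjusted p = 0.0348). It was the only one of the 4 genes called in this comparison, in which 9.93% of all tested IDs were called and 7.55% were called higher. For ra2 every hybrid library lay above every parental library, a pattern shown by 8.39% of all tested IDs. The call of ra2 was lost with the replicate number as a block (edgeR, adjusted p = 0.055), without B73 replicate 1 or 2 (0.149 for each), without Mo17 replicate 1 or 2 (0.157 and 0.107) and without WTF1 replicate 1 (0.0631), while the log2 fold change stayed between 0.83 and 1.39 over all alternatives. Reads of Mo17 were aligned to the Mo17 genome and all other reads to B73. Alignment and parent therefore cannot be told apart in any comparison that includes Mo17. The hybrids carry alleles of both parents, and whether alignment to B73 differs between these alleles was not tested.

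Against single parents, ra2 passed the test in 1 comparison. WTF1 exceeded Mo17 by 1.65 ± 0.36 on the log2 scale (SE, edgeR, adjusted p = 0.0465), where 4.50% of tested IDs were called and 3.59% were called higher. That call did not hold without either B73 library, either Mo17 library or WTF1 replicate 1 (edgeR, adjusted p from 0.114 to 0.356). For mop1F1 against Mo17 the log2 difference was 1.27 ± 0.35 (SE, edgeR, adjusted p = 0.0853), and against B73, mapped to the same genome as the hybrids, it was 0.95 ± 0.35 for WTF1 (adjusted p = 0.179) and 0.57 ± 0.35 for mop1F1 (adjusted p = 0.397). Of all tested IDs, 3.25% were called between WTF1 and B73, 3.50% between mop1F1 and B73, and 5.52% between mop1F1 and Mo17, and none of the 4 genes was among them. At an unadjusted p below 0.05, ra1 and ra2 passed between WTF1 and B73 (background 21.5%), ra1 alone between mop1F1 and B73 (21.3%), and ra1 and ra2 between mop1F1 and Mo17 (22.3%). The count of ra1 here carries no weight, since the filter kept it only for its level in hybrids. DESeq2 called ra2 between mop1F1 and Mo17, where it called 11.3% of the IDs it tested. It called none of the 4 genes between WTF1 and B73 (9.97% of IDs) or between mop1F1 and B73 (10.2%).

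The parental inbreds did not differ detectably in any of the 4 genes, in a comparison that called 10.4% of all tested IDs (edgeR; 0 of 4 genes also at an unadjusted p below 0.05, against 23.6%, and 0 of 4 with DESeq2, against 13.9%). ra2 was 1.62-fold higher in B73 than in Mo17 in the fit, with a 95% interval from 0.921-fold to 2.87-fold (edgeR, adjusted p = 0.288). When the 4 parental libraries were fitted alone, 3 of 3 genes tested (ra2, ra3 and rel2) had an unadjusted p below 0.05, against 48.8% of IDs, and none was called (edgeR, adjusted p from 0.0581 to 0.0926), against 39.8%. The B73 libraries of ra2 were both above its Mo17 libraries, as were those of 36.2% of all tested IDs.

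The upstream phosphatase gene ra3 was read thinly, and outside B73 its level differed widely between the libraries of a group. B73 had 44 and 46 reads (2.36 and 2.68 CPM), Mo17 7 and 26 (0.422 and 1.50 CPM), WTF1 3 and 31 (0.256 and 1.18 CPM), and mop1F1 37 and 16 (1.57 and 0.614 CPM). B73 was the highest group, with both libraries above all others, while the other 3 groups overlapped one another. B73 lay wholly above Mo17 in 36.2% of all tested IDs, and the share with B73 above all 3 other groups is not given. The group means ran from 2.52 ± 0.226 CPM in B73 over 1.09 ± 0.679 CPM in mop1F1 and 0.963 ± 0.765 CPM in Mo17 to 0.720 ± 0.656 CPM in WTF1 (SD, n = 2).

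No comparison called ra3. Between B73 and Mo17 its log2 difference was 1.45 ± 0.95 (SE, edgeR, adjusted p = 0.426), and between the hybrids and the parents it was -0.69 ± 0.67 (SE, edgeR, adjusted p = 0.542). Within Mo17 the library numbered 2 held 3.56 times the level of the library numbered 1 (95% counting interval 1.51 to 9.72). In WTF1 the ratio of library 2 to library 1 was 4.62 (1.44 to 23.6), and in mop1F1 it was 0.390 (0.203 to 0.719), in the opposite direction. All 3 intervals exclude equal levels. They cover counting error only, since reads without molecular identifiers are not independent molecules.

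The zinc-finger gene ra1 was close to the limit of detection in the parents and was read in numbers in only 2 hybrid libraries. The parental libraries held 1 and 1 read in B73 and 0 and 1 in Mo17, all under the 3 counts that a count of 0 allows, which is 0.161 to 0.181 CPM in these libraries. WTF1 held 4 and 33 reads (0.341 and 1.26 CPM) and mop1F1 held 3 and 37 (0.128 and 1.42 CPM). The 2 high libraries are both numbered 2, and in each hybrid the library numbered 1 lay far lower. Given the parental counts, no fold between B73 and Mo17 is stated for ra1, and no difference between them was detectable at this depth.

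Summed over libraries, ra1 had 77 reads in the hybrids and 3 in the parents, a ratio of 20.4 in level with a 95% counting interval of 6.74 to 101.3. In the model of all libraries, which includes the spread between them, the difference between hybrids and parents did not pass (edgeR, adjusted p = 0.0570; unadjusted p = 0.00635). The outcome turned on the setting. ra1 was called by DESeq2 (adjusted p = 0.0173, where DESeq2 called 15.9% of IDs). edgeR called ra1 without a filter (adjusted p = 0.0378), with the replicate number as a block (0.0481) and with a term for the number of the hybrid libraries (0.0277). Without mop1F1 replicate 1 the log2 fold change was 4.60, against 4.13 in the main fit. The mop1F1 library left in that fit is 1 of those that carried ra1 through the filter. The largest adjusted p over all alternatives was 0.211. The lowest hybrid library, mop1F1 replicate 1 with 3 reads, lay at 0.128 CPM, under the level that a count of 0 allows in the parents, and is not shown to exceed them. In the hybrid libraries numbered 1 alone, 7 reads against 3 in the parents gave a ratio of 4.61 with an interval of 1.05 to 27.6. In those numbered 2, 70 reads gave a ratio of 31.1 (10.2 to 154).

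rel2, the corepressor gene, was read deeply, with 3418 to 15372 reads a library, so that its counting error was small. The B73 libraries were at 498 and 440 CPM, those of Mo17 at 592 and 645 CPM, those of WTF1 at 292 and 587 CPM, and those of mop1F1 at 471 and 553 CPM. WTF1 replicate 1 was the lowest of the 8 libraries and the other 7 lay within a narrower range, from 440 to 645 CPM. By group mean the order was Mo17 (619 ± 37.0 CPM, SD, n = 2), mop1F1 (512 ± 58.5 CPM), B73 (469 ± 41.0 CPM) and WTF1 (439 ± 209 CPM). Among neighbours in this order only Mo17 and mop1F1 did not overlap. With TMM factors, which correct for the makeup of each library, mop1F1 (524 and 548 CPM) lay above B73 (502 and 437 CPM) as well. The share of all tested IDs with such a separation of mop1F1 from Mo17 or from B73 is not given. In the fit, rel2 in mop1F1 was not called against Mo17 (edgeR, adjusted p = 0.869) or B73 (edgeR, adjusted p = 0.82).

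No comparison called rel2. The hybrids differed from the parents by -0.12 ± 0.27 on the log2 scale (SE, 95% interval -0.75 to 0.51; edgeR, adjusted p = 0.812), and B73 from Mo17 by -0.33 ± 0.38 (edgeR, adjusted p = 0.681). Both B73 libraries were below both Mo17 libraries, which held for 35.0% of all tested IDs. Without WTF1 replicate 1, the difference between hybrids and parents was 0.14 (edgeR, adjusted p = 0.582), so its direction rested on that library.

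**Figure D2:**
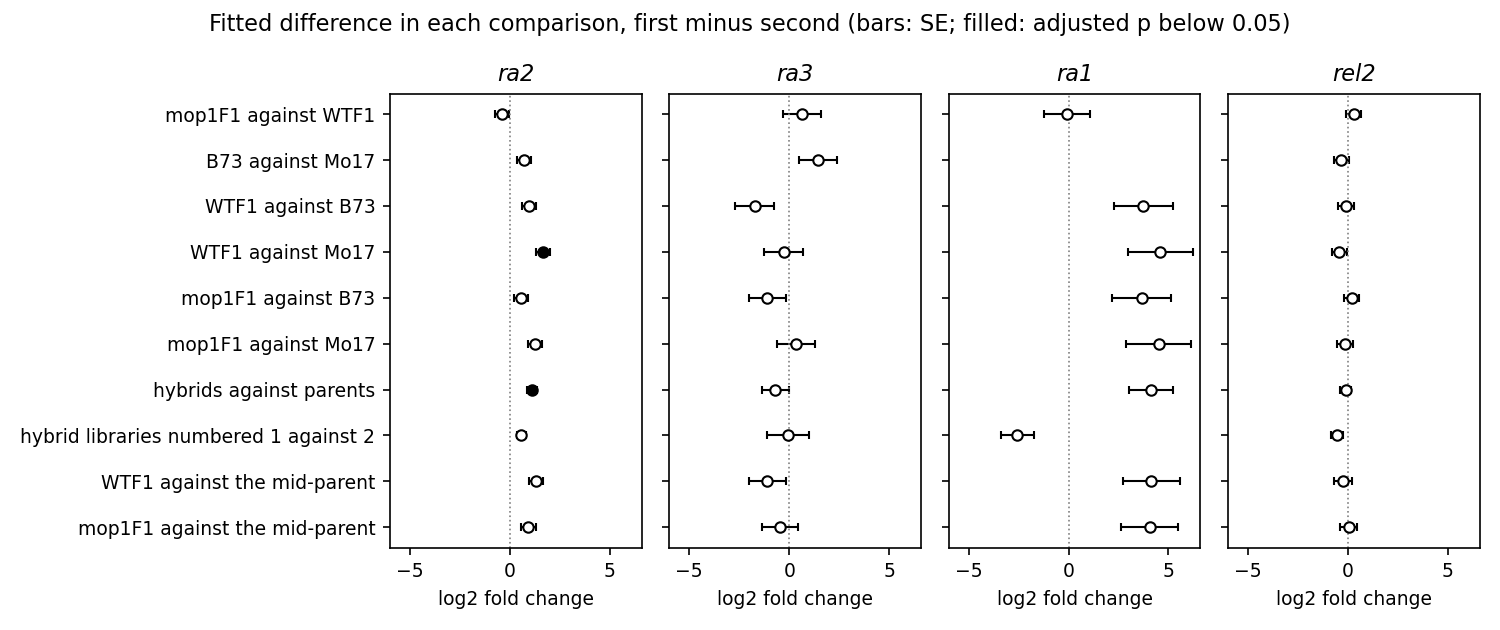
Fitted log2 fold change (x axis, first group minus second) of each gene in the 10 comparisons (y axis); bars are 1 SE and filled points have an adjusted p below 0.05 (edgeR). ra2 is filled for WTF1 against Mo17 and for hybrids against parents, no point is filled for mop1F1 against WTF1, and ra1 between the parents is left out because both are under 3 counts a library.

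mop1F1 and WTF1, whose reads were aligned to the same genome, did not differ detectably in any of the 4 genes. The labels name the parents of the 2 hybrids in opposite order, so the mop1 genotype and the direction of the cross, if that order gives it, cannot be told apart. Of all tested IDs, 0.00816% (2 IDs) were called in this comparison, which became 187 IDs without mop1F1 replicate 1. None of the 4 genes was called by edgeR, under any alternative, or by DESeq2, which called 0.135% of the IDs it tested, and 0 of the 4 had an unadjusted p below 0.05 by either tool, against 1.86% of all tested IDs by edgeR. In all 4 genes the libraries of mop1F1 and WTF1 overlapped, while mop1F1 lay wholly above WTF1 in 7.63% of tested IDs and wholly below it in 5.38%. The adjusted p was 1 for each gene (edgeR).

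The intervals show how large a change could have gone unseen. The log2 difference of mop1F1 from WTF1 was -0.38 ± 0.35 for ra2 (SE, 95% interval -1.19 to 0.43) and 0.29 ± 0.38 for rel2 (-0.60 to 1.18). As ratios of mop1F1 to WTF1, these intervals run from 0.440 to 1.34 for ra2 and from 0.658 to 2.26 for rel2. It was 0.63 ± 0.95 for ra3 (-1.58 to 2.85) and -0.08 ± 1.15 for ra1 (-2.76 to 2.60), that is, ratios from 0.335 to 7.20 and from 0.147 to 6.06.

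Within a replicate number, the hybrids were compared library by library, which has no replicate check. ra2 was lower in mop1F1 in both: the ratio of mop1F1 to WTF1 was 0.674 (95% counting interval 0.577 to 0.787) among the libraries numbered 1 and 0.796 (0.688 to 0.921) among those numbered 2. ra3 had a ratio of 6.15 (1.95 to 31.2) in the libraries numbered 1, where WTF1 had 3 reads, and of 0.519 (0.265 to 0.979) in those numbered 2. rel2 had 1.61 (1.55 to 1.68) and 0.943 (0.922 to 0.965). ra1 had 0.374 (0.0548 to 2.21) and 1.13 (0.686 to 1.86), both intervals including 1. By these ratios the direction was the same under both numbers for ra2 alone. ra3 and rel2 turned from one number to the other, and the turn of ra1 lies within its counting error. Counting error leaves out the spread between libraries. Neither these turns nor the shared direction of ra2 was tested against that spread. The share of all tested IDs that turn in this way is not given, so the turns are not read as particular to these genes.

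The hybrid libraries were also compared by replicate number, and none of the 4 genes passed. The number may stand for more than replication, since the deposited names of the hybrid counts carry a tag of unknown meaning that goes with it. With a term for the number added to the fit, the hybrid libraries numbered 1 differed from those numbered 2 by -2.56 ± 0.83 on the log2 scale for ra1 (SE, edgeR, adjusted p = 0.141, unadjusted p = 0.02), by 0.58 ± 0.24 for ra2 (adjusted p = 0.2, unadjusted p = 0.0483) and by -0.55 ± 0.30 for rel2 (adjusted p = 0.311). For ra3 it was -0.06 ± 1.06 (adjusted p = 0.976). The share of all tested IDs called was 2.40%, and 2 of the 4 genes passed an unadjusted p of 0.05, against 24.6%. ra2 was higher in both libraries numbered 1 than in both numbered 2, as were 25.7% of tested IDs, and ra1 and rel2 were lower, as were 27.6%. ra1 was kept by the filter only through the libraries numbered 2. For rel2 the ratio of library 2 to library 1 was 2.01 in WTF1 (95% counting interval 1.94 to 2.09) and 1.18 in mop1F1 (1.15 to 1.21). The part of the ambiguous reads, which differ with the same number, in these values was not tested.

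For ra1 the ratio of the hybrid libraries numbered 2 to those numbered 1 was 6.74, with 70 reads against 7 and a counting interval of 3.11 to 17.4. It was 3.69 (1.31 to 14.3) within WTF1 and 11.1 (3.52 to 56.4) within mop1F1. These intervals cover counting error only and leave out the spread between libraries. The fit, which includes that spread, did not call this difference (edgeR, adjusted p = 0.141). The libraries numbered 2 are also those that carried ra1 through the filter.

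**Figure D3:**
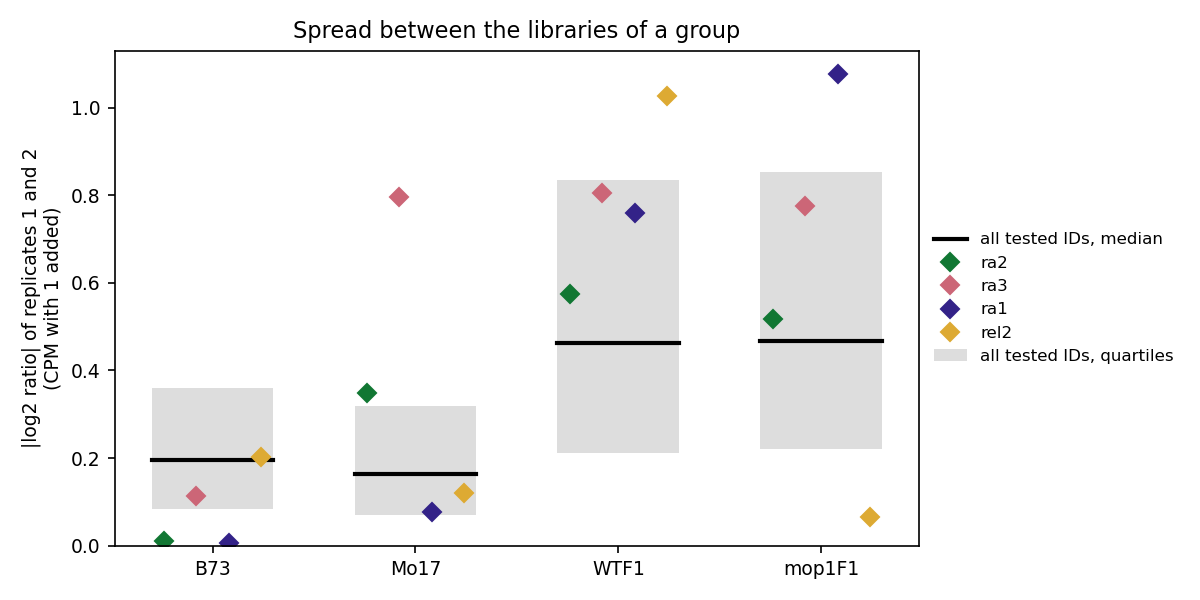
Absolute log2 ratio of replicates 1 and 2 (CPM with TMM factors, 1 CPM added; y axis) of each gene in each group, as diamonds, over grey boxes for the quartiles of all 24511 tested IDs with their median as a line. rel2 lies above the box in WTF1 (inside it with 0.1 CPM added) and under it in mop1F1, and ra3 lies above the box in Mo17. ra1 lies above the box in mop1F1, and ra2 just above it in Mo17 (inside it with 0.1 CPM added). In B73, ra1 and ra2 lie under the box.

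Replicates were further apart in the hybrids than in the parents over the transcriptome, and the 4 genes differed in how far they followed this. The median absolute log2 ratio between the libraries of a group, over all tested IDs, was 0.20 for B73, 0.16 for Mo17, 0.46 for WTF1 and 0.47 for mop1F1. For ra2 it was 0.01, 0.35, 0.57 and 0.52 in the same order. For rel2 it was 0.20, 0.12, 1.03 and 0.06, so that 17.2% of tested IDs had a larger ratio in WTF1 and 92.3% in mop1F1. For ra3 it was 0.11, 0.79, 0.80 and 0.78, and in Mo17 only 2.92% of tested IDs had a larger ratio. For ra1 it was 0.01 and 0.08 in the parents, where at most 1 read was counted, and 0.76 and 1.08 in the hybrids. The added 1 CPM shrinks the ratios of genes near that level: with 0.1 CPM added, ra3 was at 0.15, 1.61, 1.87 and 1.39, and ra1 at 0.03, 0.63, 1.64 and 2.64. On that scale 10.95% of tested IDs had a larger ratio than ra1 in WTF1 and 6.17% in mop1F1, in place of 28.6% and 17.4%, and rel2 in WTF1 was exceeded by 25.5%. In the fit the biological coefficient of variation was 79.7% for ra1, 62.8% for ra3, 31.2% for rel2 and 30.0% for ra2, beside a median of 32.5% over all tested IDs.

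Additivity was examined against mid-parents, made by adding B73 and Mo17 reads in equal amounts. Their Mo17 reads were aligned to the Mo17 genome, so alignment cannot be told apart from parent here either. ra2 stood at 8.23 and 9.06 CPM in the 2 mixtures, rel2 at 546 and 542 CPM, and ra3 at 1.30 and 2.10 CPM. ra2 exceeded this mid-parent by 1.30 ± 0.36 on the log2 scale in WTF1 (SE, edgeR, adjusted p = 0.318, unadjusted p = 0.0113) and by 0.92 ± 0.36 in mop1F1 (adjusted p = 0.401, unadjusted p = 0.0425). No ID of the 24942 tested was called in either hybrid (0.00%). In each, 2 of the 4 genes, ra1 and ra2, had an unadjusted p below 0.05 (edgeR), against 11.3% of tested IDs in WTF1 and 11.9% in mop1F1. The low p of ra1 carries no weight in this count, since the filter kept it only for its level in hybrids. DESeq2 called none of the 4, against 3.50% of IDs in WTF1 and 3.82% in mop1F1. With the mid-parent taken instead as the mean of the parents on the log scale, edgeR called 4.77% of IDs in WTF1 and 6.06% in mop1F1 and again none of the 4 genes, with ra2 at 1.30 ± 0.29 in WTF1 (SE, adjusted p = 0.0506) and 0.92 ± 0.29 in mop1F1 (adjusted p = 0.118). Over all alternatives the adjusted p of ra2 ran from 0.0506 to 0.487 in WTF1 and from 0.118 to 0.475 in mop1F1. rel2 differed from the mid-parent by -0.24 ± 0.43 in WTF1 and 0.05 ± 0.43 in mop1F1, and ra3 by -1.10 ± 0.92 and -0.46 ± 0.90 (log2, SE, edgeR, adjusted p from 0.696 to 0.98).

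On a scale from the Mo17 mean (0) to the B73 mean (100%), ra2 lay at 343% in WTF1 and 226% in mop1F1, beyond B73, the higher parent. rel2, lower in B73, lay at 125% in WTF1 and 44.7% in mop1F1, and ra3 at -12.3% and 16.4%. By the gene total in place of TMM factors, mop1F1 lay at 71.2% for rel2, on the other side of the midpoint, and at 8.43% for ra3. The scale is not given for ra1, whose parental means rest on 3 reads.

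**Figure D4:**
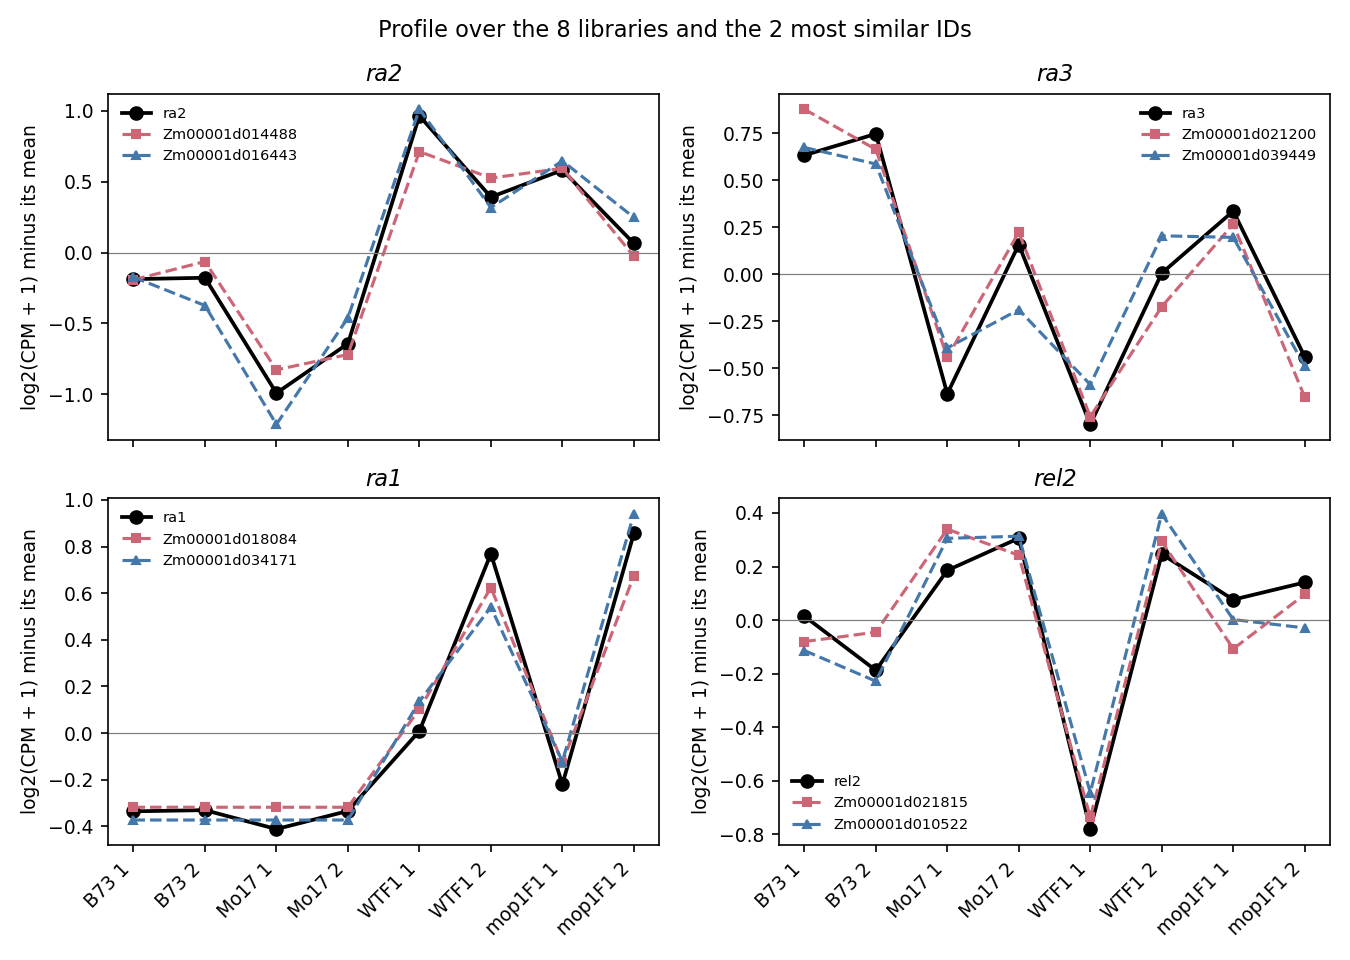
Profile of each gene over the 8 libraries (x axis) as log2(CPM + 1) minus its own mean (y axis; TMM factors), as black circles, with the 2 IDs of most similar profile as coloured squares and triangles. The neighbours of ra1 are flat over the parents and rise in the hybrid libraries numbered 2, and those of rel2 dip in WTF1 replicate 1.

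The IDs whose profile over the 8 libraries was most like that of each gene were searched among IDs with a mean level within 4-fold, by the root-mean-square difference of centred log2(CPM + 1). For ra2 these were Zm00001d014488.RefGen_V4 and Zm00001d016443.RefGen_V4, at distances of 0.13 and 0.14, where the median of 13769 IDs was 0.74. For ra3 they were Zm00001d021200.RefGen_V4 and Zm00001d039449.RefGen_V4 (0.16 and 0.20, median 0.70 of 6276 IDs). For rel2 they were Zm00001d021815.RefGen_V4 and Zm00001d010522.RefGen_V4 (0.11 and 0.12, median 0.44 of 1553 IDs). Zm00001d021815.RefGen_V4 was at 121 CPM in WTF1 replicate 1 and at 188 to 257 CPM in the other 7 libraries, which is the pattern of rel2.

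For ra1 the nearest were Zm00001d018084.RefGen_V4 and Zm00001d034171.RefGen_V4 (0.10 and 0.11, median 0.68 of 3475 IDs). Both had 0 counts in all 4 parental libraries. Zm00001d034171.RefGen_V4 was at 0.423 and 0.883 CPM in WTF1 and at 0.19 and 1.48 CPM in mop1F1. The sources used here name none of these 8 IDs. Among the 4 genes themselves the distances ran from 0.55 (ra1 and rel2, ra3 and rel2) to 0.86 (ra2 and ra3). The medians over IDs of similar level ran from 0.44 (for rel2) to 0.74 (for ra2). The nearest IDs were picked for their small distance, so they are no yardstick for the pairs among the 4 genes. Such distances over 8 libraries that share depth and the split by replicate number describe these libraries only.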

How the data were processed

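The authors deposited raw counts for each gene ID and library, followed by 5 summary rows as htseq-count writes them. The submitters' processing notes list FastQC, Trimmomatic, HISAT2, HTSeq and DESeq2 with no version. The genome each library was aligned to (Mo17 for Mo17, B73 for the rest) is taken from the names of the deposited count tables. Groups and replicate numbers follow the sample titles; the table of B73 replicate 2 is named replicate 1. No source used here states the strand setting or annotation release. Reads ambiguous between genes or not uniquely aligned were set aside in the summary rows. Overlapping genes, and genes with close relatives such as rel2 and ra3, may therefore have lost reads, or had reads counted on the wrong gene. The symbols were paired with the IDs when the genes were chosen: the gene table used here (Zm-B73-REFERENCE-NAM-5.0) lists all 4 symbols and 0 of the files' IDs, so the pairing was not checked, no sequence or coordinate is given, and the lists of related pathway genes and of markers of ear, leaf, kernel and male tissue were not tested.

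All 8 libraries entered 1 quasi-likelihood fit of group means in edgeR 4.0.16 (with limma 3.58.1 under R 4.3.3), after filterByExpr and TMM scaling. P-values of the F test were adjusted by Benjamini-Hochberg. Summary rows stayed out of library sizes. The standard error is the log2 fold change divided by the square root of F. Mid-parents are the B73 and Mo17 libraries of 1 number thinned at random to the same expected total (seed 11) and added. Counting intervals are exact 95% Poisson intervals. Library levels and read ratios use the gene total; spread, mid-parent scale, profiles and the shares of IDs whose libraries do not overlap use TMM factors. Alternatives were DESeq2 1.42.0, its size factors, other filters, a replicate block, a term for the hybrid number, the compared groups alone, and omission of single libraries. Simulated data with 200 changed IDs served to test the scripts. The genes, the lists, the tests and the rule for named IDs (for each gene, the 2 IDs of nearest profile) were chosen with earlier results of these data known.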

Additional observations from a re-analysis of the deposited data

Results flagged for a closer look

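In 3 genes the difference of mop1F1 from WTF1 had opposite signs under the 2 replicate numbers, with 1 library of each hybrid per number, and this turn was not tested. The share of all tested IDs with opposite signs is not given, so this count is not read as a trait of these genes. On the scale of log2(CPM + 1) with TMM factors, ra3 differed by 1.14 among the libraries numbered 1 and by -0.44 among those numbered 2. For rel2 the differences were 0.86 and -0.11. For ra1 they were -0.23 and 0.087, and the former rests on 3 and 4 reads.

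Reads set aside as ambiguous between genes, which no comparison used, reached 9.70% of records in the WTF1 library numbered 1 and 10.25% in that of mop1F1, above the highest parental library at 2.35%.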

How the results depend on the processing

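Values are log2 fold changes. By edgeR's adjusted p unless DESeq2 is named, ra1, hybrids against parents (4.13), passed with DESeq2 (4.31, adjusted p = 0.0173), without a filter (4.13, adjusted p = 0.0378) and with the term for the hybrid number (3.59, adjusted p = 0.0277). Leaving out 1 library gave 2.92 to 5.36. These fitted values of ra1 depend on 3 parental reads. ra2, hybrids against parents, ranged from 0.99 to 1.28 without 1 library. ra2, mop1F1 against Mo17, passed with DESeq2 (1.24, adjusted p = 0.0378) and with the number term in edgeR (1.24, adjusted p = 0.0276), and ranged from 1.003 to 1.52 without 1 library, passing without mop1F1 replicate 2 (adjusted p = 0.0486). ra2, WTF1 against Mo17, failed in the fit of these groups alone (1.66, adjusted p = 0.082) and ranged from 1.36 to 1.98 without 1 library. Settings that drop both hybrid libraries of a number were chosen after seeing the data and leave 1 library per hybrid, so the spread comes from the parents alone, and their p-values are not read as tests. Without both numbered 1, where ra1 was low, ra1 was at 4.90 and rel2 at 0.15; without both numbered 2, rel2 was at -0.41. Where 1 library is left out, the lone library of its group is likewise assumed to vary like the other groups.

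Leaving out 1 library turned some uncalled differences. For mop1F1 against WTF1 the range was -2.50 to 1.17 for ra1, -0.34 to 2.13 for ra3 and -0.12 to 0.85 for rel2. For ra3 it was -0.56 to 1.53 (mop1F1 against Mo17), -1.78 to 0.90 (WTF1 against Mo17), -1.40 to 0.11 (mop1F1 against the mid-parent) and -2.21 to 1.55 (hybrid libraries numbered 1 against 2). For rel2 it was -0.39 to 0.14 (hybrids against parents), -0.65 to 0.37 (WTF1 against B73), -0.97 to 0.038 (WTF1 against Mo17) and -0.77 to 0.19 (WTF1 against the mid-parent). For rel2, hybrid libraries numbered 1 against 2, the range was -1.04 to -0.028, with no turn of sign; the 2 fits without a mop1F1 library that passed compare 1 WTF1 library with 1 and take their spread from the parents. In all, 488 of the values under an alternative kept direction and side of the threshold, 13 lost a call, 12 gained one and 17 turned. The cause was not tested.

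The labels do not say that a replicate number pairs libraries. With the number as a replicate block, ra2 failed between hybrids and parents (1.08, adjusted p = 0.055) and between WTF1 and Mo17 (1.62, adjusted p = 0.0771), and ra1 passed between hybrids and parents (3.94, adjusted p = 0.0481). It changed no other call of the 4 genes. Deviations of same-numbered libraries from their group means correlated at 0.311 between WTF1 and mop1F1 and from -0.0795 to 0.114 between other groups. Over all IDs, hybrids against parents, 2434 calls became 1822 with the block, 4227 with DESeq2, 560 to 653 without 1 parental library, up to 5122 without 1 hybrid library, and 10942 and 10323 without both numbered 1 or 2. Over all alternatives the calls ran from 0 to 187 for mop1F1 against WTF1 (reported 2, DESeq2 42), 1062 to 9334 for B73 against Mo17 (2561), 83 to 2531 for WTF1 against B73 (796), 454 to 2615 for WTF1 against Mo17 (1102), 0 to 3161 for mop1F1 against B73 (858), 415 to 2877 for mop1F1 against Mo17 (1352), 0 to 6199 for the hybrid number (588), and 0 to 1169 and 1485 for WTF1 and mop1F1 against the mid-parent (0). ra1 was removed by the filter in the fits of 2 groups other than the 2 hybrids and without both hybrid libraries numbered 2. ra1 had 80 reads and ra3 210 over all 8 libraries, which limits their precision.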
